A study of Mus musculus with 10 samples.

Results

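The 10 genes described here carry dietary fat out of the enterocyte: the apolipoproteins *Apoa1*, *Apoa4*, *Apoc3* and *Apob*, the lipid transfer protein *Mttp*, the acyltransferases *Dgat1* and *Mogat2*, the fatty acid binding proteins *Fabp1* and *Fabp2*, and the transcription factor *Creb3l3*. They were taken by symbol from the 35275 gene IDs of the count tables, of which 34490 matched a mouse gene symbol, and all 10 were found. The list was chosen with the difference between knockout and wild-type libraries already known, as genes that were lower in KO libraries to different degrees. Their levels and fold changes are therefore given as a description with no p-value, and counts of how many of them met the call rule of the fit across all genes support nothing, since the list rests on the same contrast.

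RNA-seq was done on the labelled proximal intestine of 5 WT mice and 5 KO mice, aged 8 to 10 weeks in the labels, with 1 library per mouse. KO stands for loss of the zinc and metal transporter *Zip14* (*Slc39a14*). The study calls these mice WB-KO. The study's methods describe the mice as a whole-body deletion bred from heterozygous parents, with WT mice of the same strain as controls, whereas the title of the series names a deletion limited to enterocytes and the labels say only KO. No source used here gives the sex of single mice. The 4 Y-linked genes examined summed to 0 or 1 count in every library. A segment of intestine holds muscle and stroma beside epithelium, and in such bulk RNA fewer cells of a type and less RNA per cell cannot be told apart.

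Absorbed fatty acids and monoglycerides are bound by FABP1 and FABP2 in the cytosol and rebuilt into triglyceride by MOGAT2 and DGAT enzymes at the endoplasmic reticulum. MTTP loads this triglyceride onto APOB as it enters the lumen, and the growing chylomicron takes up APOA1, APOA4 and APOC3 before it leaves in large transport vesicles. CREB3L3 is held in the membrane of the endoplasmic reticulum until proteases free it, and it is known to act on apolipoprotein genes in liver and intestine.

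*Apoa1*, *Apoc3* and *Apoa4* lie side by side on chromosome 9 of the mouse genome GRCm38. *Apoa1* runs from 46228580 to 46230466 on the plus strand, *Apoc3* from 46232933 to 46235636 on the minus strand, and *Apoa4* from 46240696 to 46243459 on the plus strand, within 14880 bases in all. The start sites of *Apoc3* and *Apoa4* are 7056 and 12116 bases from that of *Apoa1* (GENCODE M21). *Fabp1* lies on chromosome 6 from 71199827 to 71205023 and *Fabp2* on chromosome 3 from 122895072 to 122899506, both on the plus strand. The means of *Apoa1* and *Fabp2* in KO libraries were the least below WT in their sets and those of *Apoa4* and *Fabp1* the most, so that the promoters of these genes are shown. They were taken from RefSeq (GRCm38.p6), from 250 bases before the start site to 50 after it, and capitals mark the motifs found. The RefSeq start site of *Apoa4* is 148 bases downstream of the GENCODE start of the gene.
Apoa1, chr9:46228380-46228679, plus strand: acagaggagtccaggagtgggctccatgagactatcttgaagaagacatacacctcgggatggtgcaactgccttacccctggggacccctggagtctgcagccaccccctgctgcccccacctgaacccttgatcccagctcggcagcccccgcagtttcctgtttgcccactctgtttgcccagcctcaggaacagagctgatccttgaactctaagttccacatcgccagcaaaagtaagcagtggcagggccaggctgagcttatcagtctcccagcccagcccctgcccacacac
Apoa4, chr9:46240594-46240893, plus strand: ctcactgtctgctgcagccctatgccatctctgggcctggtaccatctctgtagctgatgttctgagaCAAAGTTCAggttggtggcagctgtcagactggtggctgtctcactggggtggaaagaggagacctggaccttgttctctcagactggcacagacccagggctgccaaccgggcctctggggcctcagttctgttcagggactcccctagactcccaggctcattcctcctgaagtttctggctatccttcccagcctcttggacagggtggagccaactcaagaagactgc
Fabp1, chr6:71199629-71199928, plus strand: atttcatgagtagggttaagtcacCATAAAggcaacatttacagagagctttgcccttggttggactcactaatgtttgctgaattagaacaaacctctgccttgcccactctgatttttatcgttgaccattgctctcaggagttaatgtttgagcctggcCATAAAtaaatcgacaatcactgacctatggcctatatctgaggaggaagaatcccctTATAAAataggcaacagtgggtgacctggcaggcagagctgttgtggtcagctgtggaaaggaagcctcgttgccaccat
Fabp2, chr3:122894822-122895121, plus strand: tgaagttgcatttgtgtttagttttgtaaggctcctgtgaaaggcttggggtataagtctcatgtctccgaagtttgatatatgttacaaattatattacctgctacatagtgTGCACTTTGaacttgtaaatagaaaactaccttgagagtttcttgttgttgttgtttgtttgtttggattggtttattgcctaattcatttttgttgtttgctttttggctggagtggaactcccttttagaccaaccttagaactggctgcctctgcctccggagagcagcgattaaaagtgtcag

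6 motifs were searched on both strands, and none of the matches overlapped another. The share of the 32851 RefSeq promoters of the same length with at least 1 match was 1.41% for the HNF4 type CAAAGTNCA, 0.801% for the HNF1 type GTTAATNAT and 11.9% for the CDX type CATAAA. It was 11.2% for the GATA type AGATAA, 7.51% for the CREB type TGACGT and 13.6% for the TATA box TATAAA. *Apoa4* held 1 HNF4 match on the plus strand, from base -182 to -174 relative to the start site, and *Apoa1* held no match to any of the 6. *Fabp2* held 1 HNF4 match on the minus strand, from -137 to -129. *Fabp1* held 2 CDX matches, from -226 to -221 and from -88 to -83, and a TATA box from -30 to -25. Promoters were found for 7 of the 10 genes. Of the others searched, *Apob* had a TATA box from -60 to -55, *Mttp* a CREB match on the minus strand from -29 to -24, and *Creb3l3* a GATA match from -138 to -133 in 1 of its 2 promoters. The RefSeq start sites behind the matches of *Mttp* and *Creb3l3* lie 1550 and 6283 bases downstream of the GENCODE starts of these genes. *Apoc3*, *Dgat1* and *Mogat2* were not searched. The HNF4 match thus stood in the promoter of 1 of the most and of 1 of the least lowered genes by mean. These letters describe the sequence and were not tested for binding.

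The libraries held between 16729787 and 20819678 counts in WT mice and between 17118742 and 19414828 in KO mice. *Slc39a14* itself fell from 260.4 ± 62.5 to 102 ± 32.9 CPM (SD, n = 5 each; log2 fold change -1.35, standard error 0.22, adjusted p = 0.00184 with edgeR's quasi-likelihood test), and the groups did not overlap. Levels are given as CPM, counts scaled by TMM to an effective library total so that libraries of different depth compare. The labelled tissue and the markers did not go together in the KO libraries. Of 5 ileum markers all 5 rose, their summed CPM being 199 to 237 in WT and 3245 to 10499 in KO libraries. *Fabp6*, the ileal bile acid binding protein, had 0.675, 0.0638, 0.817, 0.605 and 1.74 CPM in WT replicates 1 to 5 and 3295, 2307, 5192, 9058 and 7722 CPM in KO replicates 1 to 5. Of 6 markers of the proximal intestine 5 were tested and 3 fell, and the summed CPM of the 6 was 206 to 414 in WT and 31.5 to 95.5 in KO libraries. *Gata4*, which sets the proximal pattern of the small intestine, had 217, 201, 200.1, 166 and 160.3 CPM in WT and 59.4, 13.8, 5.24, 0.572 and 1.47 CPM in KO replicates 1 to 5. Genotype and position along the intestine therefore cannot be told apart in any difference between these groups, that of *Slc39a14* included. KO replicate 1 kept the most *Gata4* of the KO libraries. It also had the most *Slc39a14* of them, at 160 CPM, against 78.5 to 93.8 CPM in KO replicates 2 to 5. WT replicates 4 and 5 had the least *Slc39a14* of the WT libraries, at 191 and 223 CPM, and the least *Gata4*.

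Among the apolipoproteins, *Apoa4* and *Apoc3* were far below WT in every KO library, *Apob* was moderately lower, and *Apoa1* overlapped between the groups. *Apoa4*, an abundant apolipoprotein of intestinal chylomicrons, had 5648, 9063, 8501, 3390.2 and 3865 CPM in WT replicates 1 to 5 and 493, 351, 64.4, 43.9 and 18.8 CPM in KO replicates 1 to 5. All KO libraries were below all WT libraries, and KO replicates 1 and 2 stood above the other 3. The means were 6093 ± 2602 CPM in WT and 194 ± 214 CPM in KO mice (SD, n = 5 each), 31.4-fold lower, with a log2 fold change of -4.97 (standard error 0.90). With 1 library left out in turn it ran from -5.67 (without KO replicate 1) to -4.68 (without KO replicate 5). The highest KO library had 26.2 times the level of the lowest, against 2.67 times among WT libraries. *Apoa4* shares 632 exonic bases, 34.8% of its length, with the antisense gene *Gm10680*, which had 0 counts in every library, and the counting of strand is not given in the sources used here.

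*Apoc3*, which restrains lipoprotein lipase, had 930.2, 817, 1223, 775 and 831 CPM in WT replicates 1 to 5 and 147, 83.0, 19.1, 83.8 and 67.7 CPM in KO replicates 1 to 5. KO replicate 3 was the lowest and KO replicate 1 the highest KO library, and the groups did not overlap. The means were 915 ± 182 CPM in WT and 80.2 ± 45.9 CPM in KO mice (SD, n = 5 each), 11.4-fold lower, with a log2 fold change of -3.51 (standard error 0.43).

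*Apob*, the protein around which the particle is built, had 4579, 4789, 3468, 3601 and 4100.3 CPM in WT replicates 1 to 5 and 2819.8, 2285, 1902, 1202 and 1541 CPM in KO replicates 1 to 5. Every KO library was below every WT library, though the highest KO and the lowest WT library were closer than for *Apoa4*. The mean was 47.5% of WT (4108 ± 582 CPM in WT and 1949.9 ± 632 CPM in KO mice, SD, n = 5 each), with log2 fold change -1.07 (standard error 0.23).

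*Apoa1*, the main apolipoprotein of high-density lipoprotein, had 6192, 6304, 6579.7, 6381 and 6819.8 CPM in WT replicates 1 to 5 and 6802, 3849, 3514, 6705 and 4223 CPM in KO replicates 1 to 5. KO replicates 1 and 4 lay within the WT range and the other 3 below it. The means were 6455 ± 248 CPM in WT and 5019 ± 1604 CPM in KO mice (SD, n = 5 each), 77.7% of WT, with a log2 fold change of -0.36 (standard error 0.21), and the highest WT library was 1.10 times the lowest.

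The 3 neighbours on chromosome 9 thus made up different mixes in the groups. The ratio of *Apoa1* to *Apoa4* CPM, which is not corrected for length and is compared only between libraries, was 0.696 to 1.88 in WT and 10.97 to 225 in KO libraries. *Apoa1* gave 39.0% to 60.5% of the CPM of the 3 genes in WT libraries and 89.9% to 98.1% in KO libraries. The sum of the 3 was 10546 to 16304 CPM in WT and 3598 to 7442 CPM in KO libraries. *Apoa5*, the next gene of the cluster and 40053 bases from the start site of *Apoa1*, was below the filter on low counts with 39 counts over all WT and 12 over all KO libraries (exact permutation test on log2(CPM + 1), two-sided, p = 0.00794, the smallest that 5 against 5 mice can give).

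**Figure D1:**
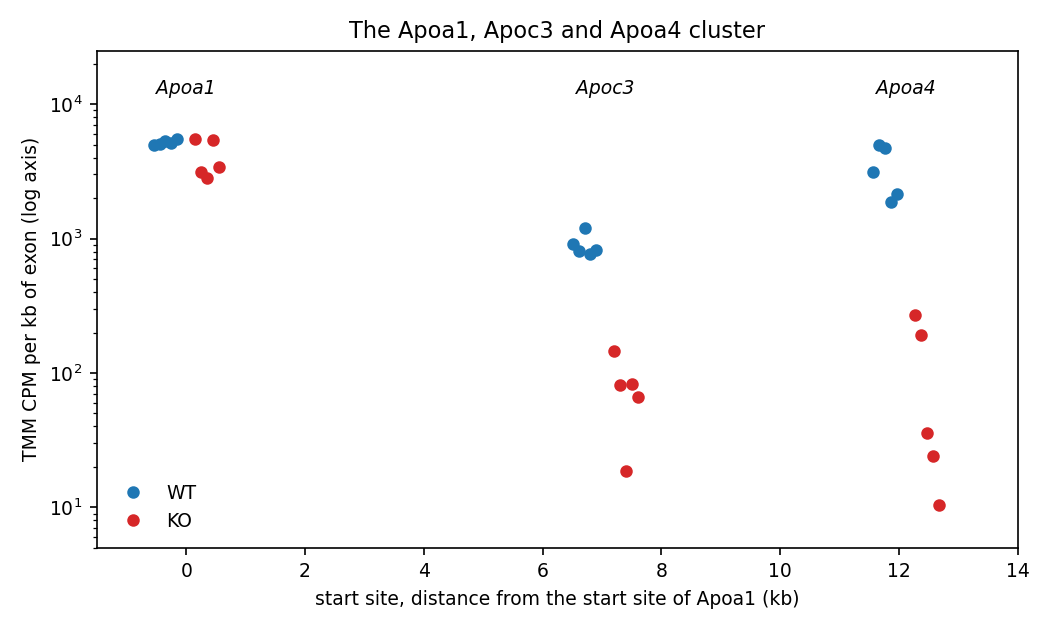
CPM per kilobase of exon on a log axis against the distance of the start site from that of *Apoa1*, in kilobases, for *Apoa1*, *Apoc3* and *Apoa4*; each point is 1 library, WT in blue and KO in red, with the libraries of a gene set side by side. The points of the groups overlap at *Apoa1* and stand apart at *Apoc3* and *Apoa4*, where the means were 11.4-fold and 31.4-fold lower in KO.

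*Mttp*, the transfer protein that lipidates APOB, had 2981, 3722, 2982, 1980.4 and 2224 CPM in WT replicates 1 to 5 and 1448, 476, 280.1, 387 and 543 CPM in KO replicates 1 to 5. All KO libraries were below all WT libraries, and KO replicate 1 stood well above the other 4 KO libraries. The means were 2778 ± 692 CPM in WT and 627 ± 469 CPM in KO mice (SD, n = 5 each), with log2 fold change -2.15 (standard error 0.41). With 1 library left out in turn it ran from -2.72 (without KO replicate 1) to -1.97 (without KO replicate 3). Its exons share 457 bases with those of *Trmt10a* on the opposite strand. The ratio of *Apob* to *Mttp* CPM was 1.16 to 1.84 in WT and 1.95 to 6.79 in KO libraries, above WT in every KO library.

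The 2 acyltransferases of triglyceride synthesis were moderately lower, each without overlap of the groups. *Mogat2*, which adds a fatty acid to monoacylglycerol, had 452, 455, 453, 351 and 371 CPM in WT replicates 1 to 5 and 337, 175, 156, 205 and 257 CPM in KO replicates 1 to 5. The highest KO library came close to the lowest WT library without reaching it, and the mean was 54.3% of WT (log2 fold change -0.88, standard error 0.20). *Dgat1*, which makes triglyceride from diacylglycerol, had 948, 928, 953, 816 and 857 CPM in WT replicates 1 to 5 and 636, 347, 336, 499.7 and 409 CPM in KO replicates 1 to 5. The mean was 49.5% of WT (log2 fold change -1.02, standard error 0.18), and the order of the KO libraries was nearly that of *Mogat2*. Of all pairs among the 10 genes, *Dgat1* and *Mogat2* had the most alike patterns, with a root mean square difference of 0.167 in centred log2(CPM + 1) over the 10 libraries.

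The 2 fatty acid binding proteins parted. *Fabp1*, the liver-type protein, had 2652, 2492, 3063, 1190.5 and 1596 CPM in WT replicates 1 to 5 and 50.8, 125, 51.0, 22.1 and 4.04 CPM in KO replicates 1 to 5. The highest KO library was far below the lowest WT library, and KO replicate 5 was the lowest. The means were 2199 ± 777 CPM in WT and 50.6 ± 46.2 CPM in KO mice (SD, n = 5 each), 43.4-fold lower, with a log2 fold change of -5.44 (standard error 0.77). With 1 library left out in turn it ran from -6.11 (without KO replicate 2) to -5.14 (without KO replicate 5). Only 13 of the 15610 genes tested had a fold change as low or lower, *Fabp1* included, and 18 for *Apoa4*.

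*Fabp2*, the intestinal-type protein, had 3777, 4341, 4621, 3728 and 5339 CPM in WT replicates 1 to 5 and 7535, 2216, 2496, 3441 and 2736 CPM in KO replicates 1 to 5. KO replicate 1 was above all WT libraries and the other 4 KO libraries were below them. The means were 4361 ± 665 CPM in WT and 3685 ± 2199 CPM in KO mice (SD, n = 5 each), with log2 fold change -0.24 (standard error 0.32). It was -0.68 without KO replicate 1, where *Fabp2* met the call rule as lower, and -0.11 without KO replicate 2. Nothing is read from that call, since the list was chosen on this contrast. The ratio of *Fabp2* to *Fabp1* CPM was 1.42 to 3.34 in WT and 17.7 to 677 in KO libraries. With *Fabp6* added, the sum of the 3 binding proteins was 4919 to 7685 CPM in WT and 4648 to 12521 CPM in KO libraries, of which *Fabp6* gave 30.3% to 73.8% in KO and at most 0.0250% in WT libraries.

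**Figure D2:**
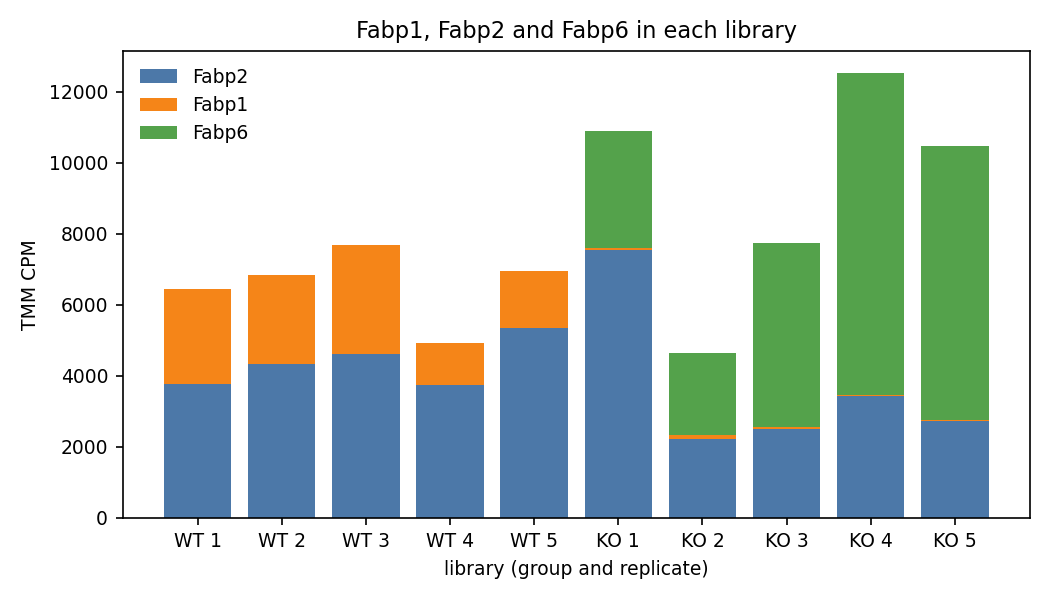
Stacked bars of TMM CPM of *Fabp2*, *Fabp1* and *Fabp6* in each of the 5 WT and 5 KO libraries. *Fabp1* is a visible share in WT bars alone, while *Fabp6* makes 30.3% to 73.8% of the sum in KO bars.

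*Creb3l3*, the transcription factor of the set, had 563, 673, 629, 530.4 and 623 CPM in WT replicates 1 to 5 and 286, 146, 109, 156 and 62.9 CPM in KO replicates 1 to 5. No KO library reached the lowest WT library, and KO replicate 5 was the lowest. The means were 604 ± 56.4 CPM in WT and 152 ± 83.5 CPM in KO mice (SD, n = 5 each), 25.2% of WT, with a log2 fold change of -1.99 (standard error 0.32).

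8 of the 10 genes met the call rule, lower in KO libraries at an adjusted p under 0.05 in edgeR's fit, and their groups did not overlap, where 13.9% of the 15610 genes tested were called lower and 10.8% did not overlap with KO lower. The median log2 fold change of the 10 was -1.53, and that of all genes tested was 0.03. The list was chosen on this contrast, so nothing is read from the count or from the median. *Apoa1* and *Fabp2* were the 2 not called. With a smooth muscle or an epithelium marker score in edgeR's model 0 of the 10 were called lower (5 and 4 at an unadjusted p under 0.05), and these scores did not overlap between the groups, so that score and genotype cannot be told apart. With the smooth muscle and the epithelium score in turn, the log2 fold change was -2.52 and -2.38 for *Apoa4*, -3.12 and -3.15 for *Apoc3*, -3.94 and -2.88 for *Fabp1*, and -1.70 and -1.06 for *Creb3l3*. It was -0.22 and -1.004 for *Apob*, -0.88 and -1.99 for *Mttp*, -0.97 and -0.88 for *Dgat1*, and -0.44 and -1.04 for *Mogat2*. These 8 genes were called without a score and not called with either one. Together the 10 genes took 2.27% to 3.15% of the counts of WT libraries and 0.966% to 2.01% of those of KO libraries.

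**Figure D3:**
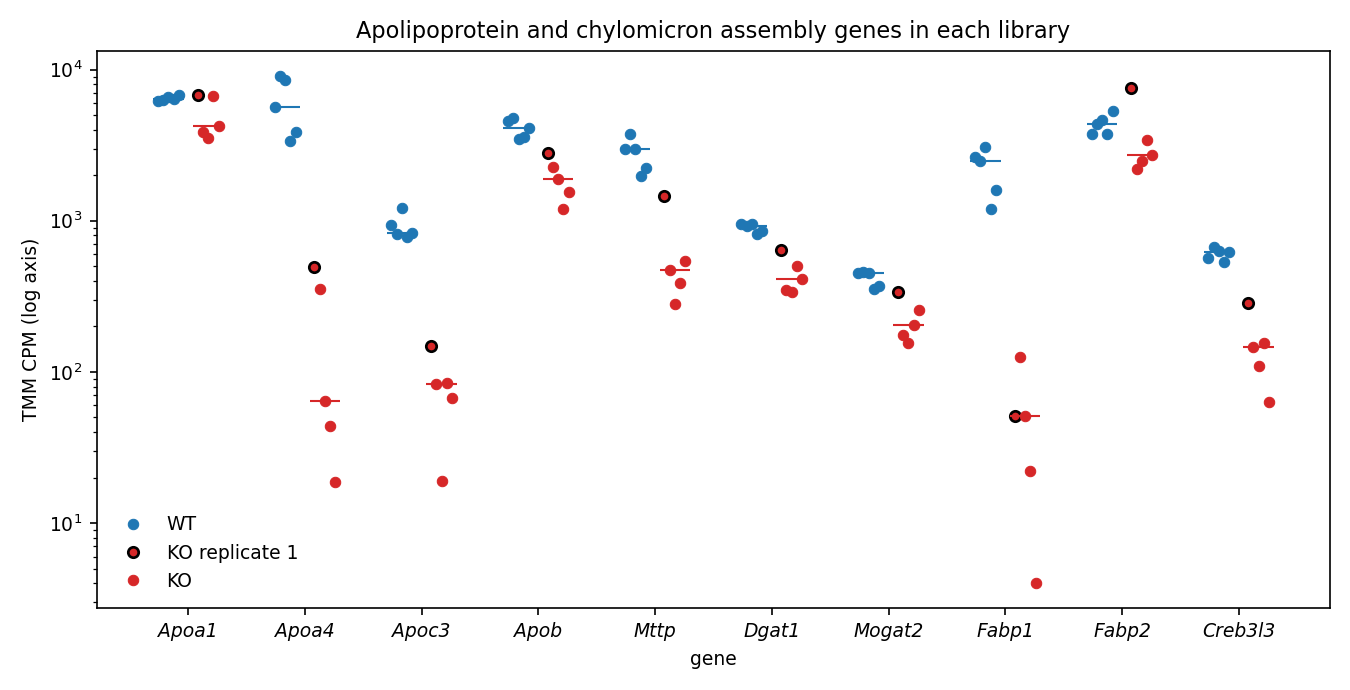
TMM CPM on a log axis of the 10 genes; each point is 1 library, in replicate order from left to right within a group, and lines mark the group medians. KO replicate 1, ringed in black, is the highest KO library for 9 of the 10 genes, and the ranges of WT and KO points overlap for *Apoa1* and *Fabp2*.

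The KO libraries were not alike. KO replicate 1 was the highest KO library for 9 of the 10 genes, all but *Fabp1*, for which it was KO replicate 2. KO replicate 3 was the lowest for 5 genes and KO replicate 5 for 3. Among WT libraries, replicates 4 and 5 were the 2 lowest for *Apoa4*, *Mttp*, *Dgat1*, *Mogat2* and *Fabp1*. *Onecut2*, a factor of the proximal intestine, was also lower there, with 68.1, 124, 91.6, 18.1 and 20.2 CPM in WT replicates 1 to 5, and was at 0.282 to 1.52 CPM in KO libraries.

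**Figure D4:**
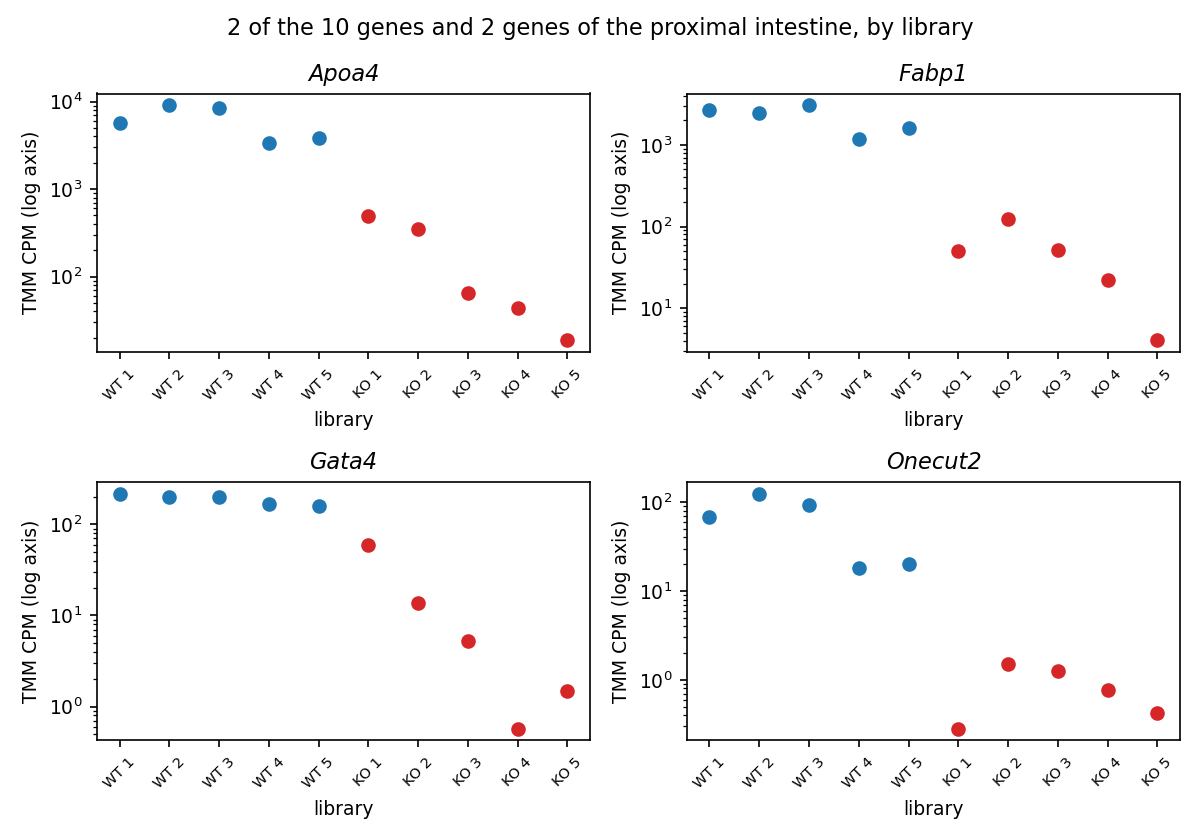
TMM CPM on log axes of *Apoa4*, *Fabp1*, *Gata4* and *Onecut2* in each library, WT in blue and KO in red. WT replicates 4 and 5 are the lowest WT libraries in all 4 panels, and *Gata4* is highest among KO libraries in replicate 1.

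Levels of different genes were compared as CPM per kilobase of exon. In WT libraries the order was *Apoa1* at 5223 ± 201, *Fabp2* at 4519 ± 689, *Fabp1* at 3976 ± 1406 and *Apoa4* at 3357 ± 1434 CPM per kilobase (SD, n = 5), and the ranges of neighbours overlapped. *Apoc3* followed at 903 ± 179, below all 4 and above the rest without overlap. *Mttp*, *Apob* and *Dgat1* came next at 448 ± 112, 295 ± 41.7 and 295 ± 19.9 CPM per kilobase, overlapping in turn, and then *Mogat2* and *Creb3l3* at 227 ± 27.8 and 200.1 ± 18.7. In KO libraries *Apoa1* and *Fabp2* stayed in front at 4060.4 ± 1298 and 3819 ± 2279 CPM per kilobase. The other 8 genes lay between 50.4 and 146 CPM per kilobase on average, all neighbours in the order overlapping. *Fabp1* and *Apoa4* thus moved from the front group to the eighth and sixth place.

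Markers of cell types were compared beside the 10 genes. Of 10 epithelium markers 7 rose and 0 fell with edgeR (1 was lower at an unadjusted p under 0.05, and DESeq2 called 0 lower). Their summed CPM was 11880 to 13779 in WT and 13977 to 20161 in KO libraries. *Vil1*, a brush border protein, had 3086 ± 96.5 CPM in WT and 2199.7 ± 739.9 CPM in KO mice (SD, n = 5 each; edgeR adjusted p = 0.105). *Krt8*, an epithelial keratin, rose by 0.77 on the log2 scale (adjusted p = 0.00383 with edgeR). Relative to the mean log2(CPM + 1) of the 10 epithelium markers, a scale chosen after seeing the data, the difference of KO from WT in mean was -0.87 for *Apoa1*, without overlap, and -0.84 for *Fabp2*, with overlap. The other 8 did not overlap on this scale, with -6.27 for *Apoa4*, -6.42 for *Fabp1*, -4.18 for *Apoc3*, -2.81 for *Mttp*, -2.60 for *Creb3l3*, -1.58 for *Apob*, -1.51 for *Dgat1* and -1.38 for *Mogat2*. These are differences of means of log2(CPM + 1) and not fold changes of edgeR's fit, so that both the reference and the measure differ from those above. The marker mean itself was 9.49 to 9.75 in WT and 9.94 to 10.4 in KO libraries, and its rise enters every difference by the same amount. Without this reference the difference of means was -0.42 for *Apoa1* and -0.39 for *Fabp2*.

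Of 6 villus tip markers 4 fell, and their summed CPM was 1854 to 3779 in WT and 419.8 to 820.1 in KO libraries. *Ada*, an adenosine deaminase of the upper villus, had 1213 ± 554 CPM in WT and 139 ± 94.5 CPM in KO mice (SD, n = 5 each; edgeR adjusted p = 0.00233). Of 6 crypt markers 1 rose and 0 fell with edgeR (1 was lower at an unadjusted p under 0.05, and DESeq2 called 0 lower). Of 10 smooth muscle markers 9 rose, with a summed CPM of 1699 to 2813 in WT and 3856 to 11307 in KO libraries. The part of these lists in the lower levels of the 10 genes was not tested.

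Hepatocyte and pancreatic acinar markers were low, and 0 of the 7 acinar markers passed the filter for testing. The 9 hepatocyte markers summed to 4.56 to 7.93 CPM in WT and 4.79 to 12.4 CPM in KO libraries, and 1 of the 3 tested, *Apoh*, rose (adjusted p = 0.0479 with edgeR) and 0 fell (0 at an unadjusted p under 0.05, 0 with DESeq2). *Alb* was at 0.769 ± 0.542 and 0.545 ± 0.407 CPM in WT and KO libraries (SD, n = 5 each). The 7 acinar markers summed to 0.495 to 2.33 CPM in WT and 0.787 to 5.67 CPM in KO libraries. Of 6 leukocyte markers 0 were called by edgeR (2 higher and 1 lower at an unadjusted p under 0.05, 1 higher and 1 lower with DESeq2), with a summed CPM of 1689 to 2270.0 in WT and 1136 to 5336 in KO libraries.

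Of 92 other genes of fat absorption and its control, 86 were tested, 32 fell and 16 rose, with a threshold of 0.05 on edgeR's adjusted p. Over all 15610 genes 13.9% fell and 16.0% rose. With the smooth muscle or the epithelium score in the model 0 fell (15 and 23 at an unadjusted p under 0.05) and 1 rose with edgeR. Their median log2 fold changes by list were -0.67 for fatty acid uptake and activation, -0.18 for glyceride synthesis, -0.36 for other apolipoproteins, -0.56 for lipid droplets and chylomicron transport, 0.71 for other lipid-binding proteins, 0.06 for the CREB3 family and its proteases, and -0.21 for transcription factors. The lists were drawn up with earlier results known, and the counts describe them only.

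Of 11 genes of fatty acid uptake and activation 4 fell and 1 rose. *Acsl5*, an acyl-CoA synthetase of the enterocyte, had 1719.6 ± 328 CPM in WT and 576 ± 242 CPM in KO mice (SD, n = 5 each; log2 fold change -1.58, adjusted p = 0.00234 with edgeR). *Slc27a4* (FATP4), a fatty acid transport protein, fell by 0.80 on the log2 scale (adjusted p = 0.00872 with edgeR), and the groups overlapped. *Slc27a2* (FATP2) had 117 ± 48.1 CPM in WT and 19.5 ± 8.18 CPM in KO mice (SD, n = 5 each; adjusted p = 0.000659 with edgeR). Of 12 genes of glyceride synthesis 5 fell and 2 rose. *Dgat2*, the other acyltransferase of triglyceride synthesis, fell by 1.16 on the log2 scale with overlap (adjusted p = 0.0126 with edgeR), and *Agpat3* had 179 ± 25.0 CPM in WT and 61.1 ± 10.9 CPM in KO mice (SD, n = 5 each; adjusted p = 0.000135 with edgeR). *Lpcat3*, which remodels membrane phospholipid, had 293 ± 22.0 CPM in WT and 241 ± 41.8 CPM in KO mice and was not called (SD, n = 5 each; adjusted p = 0.104 with edgeR).

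The list of other apolipoproteins held 12 genes, with *Apobec1*, the editing enzyme of *Apob* mRNA, among them; 9 were tested, 4 fell and 3 rose. Of the 4 that fell, *Apoo* and *Apool* are known as subunits of a mitochondrial membrane complex rather than of lipoproteins, and *Apoc1*, *Apod* and *Apoh* rose (named after their values were seen). The means of *Apoc1*, *Apod* and *Apoh* were low, at 0.409, 0.636 and 0.907 CPM in WT and 1.43, 2.84 and 3.18 CPM in KO libraries. *Apoc1* and *Apoh* overlapped between the groups and *Apod* did not. *Apoc2*, the activator of lipoprotein lipase, had 884 ± 548 CPM in WT and 94.9 ± 49.6 CPM in KO mice (SD, n = 5 each; log2 fold change -3.22, adjusted p = 0.00273 with edgeR). WT replicates 4 and 5 were again the lowest WT libraries, at 295 and 388 CPM. *Apoc2* shares 79.5% of its exonic bases with *Gm44805* on the same strand, which was not analysed here. The activator and the inhibitor of lipoprotein lipase, *Apoc2* and *Apoc3*, were both lower. *Apoa2* fell from 2.44 ± 2.40 to 0.245 ± 0.267 CPM (SD, n = 5 each; adjusted p = 0.012 with edgeR), with 212 counts over all WT and 23 over all KO libraries. WT replicate 3 had 6.65 CPM of *Apoa2* and the other WT libraries 0.714 to 1.98, and the log2 fold change of -3.29 was -2.49 without it and -4.06 without KO replicate 1. *Apoe*, also made by macrophages, had 381 ± 116 CPM in WT and 307 ± 111 CPM in KO mice and was not called (SD, n = 5 each; adjusted p = 0.396 with edgeR).

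Of 17 genes of lipid droplets and chylomicron transport 8 fell and 2 rose. *P4hb*, the subunit that MTTP needs to fold, had 2571 ± 559 CPM in WT and 936 ± 237 CPM in KO mice (SD, n = 5 each; log2 fold change -1.46, adjusted p = 0.000984 with edgeR), a smaller difference than that of *Mttp*. *Surf4*, a cargo receptor for lipoproteins, fell by 0.92 on the log2 scale (adjusted p = 0.00181 with edgeR). *Pnpla3*, a lipase-like protein, had 1.28 to 7.75 CPM in WT libraries and 3.04, 20.1, 14.7, 61.4 and 5.56 CPM in KO replicates 1 to 5, and its rise (adjusted p = 0.0289 with edgeR) rested in part on KO replicate 4, without which the log2 fold change went from 2.56 to 1.62 (adjusted p = 0.0769). Without WT replicates 1, 2, 3 or 5 in turn it was 2.61, 2.35, 2.48 and 2.40, with adjusted p of 0.0604 to 0.0687 from edgeR.

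Of 10 other lipid-binding proteins 7 were tested, 3 rose and 1 fell. *Fabp6* is given above. *Rbp2*, the retinol binding protein of enterocytes, had 1851 ± 749 CPM in WT and 256 ± 91.5 CPM in KO mice (SD, n = 5 each; log2 fold change -2.85, adjusted p = 0.000499 with edgeR), with WT replicates 4 and 5 lowest among WT libraries.

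Of the 6 genes of the CREB3 family and its proteases 2 fell and 2 rose. *Creb3l2* had 197 ± 8.10 CPM in WT and 45.9 ± 18.6 CPM in KO mice (SD, n = 5 each; log2 fold change -2.10, adjusted p = 0.000286 with edgeR), and *Creb3l1* had 22.8 ± 4.45 CPM in WT and 52.2 ± 14.6 CPM in KO mice (SD, n = 5 each; adjusted p = 0.00225 with edgeR). *Mbtps1*, a protease that cuts these factors, had 92.0 ± 4.87 CPM in WT and 94.6 ± 6.03 CPM in KO mice (SD, n = 5 each, adjusted p = 0.709 with edgeR). Of 24 transcription factors 8 fell and 3 rose. *Hnf4a*, a nuclear receptor of liver and gut, had 861 ± 71.5 CPM in WT and 1039 ± 244 CPM in KO mice and was not called (SD, n = 5 each; adjusted p = 0.234 with edgeR), while *Hnf4g*, its paralog, fell by 1.25 on the log2 scale (adjusted p = 0.00318 with edgeR). *Gata4* fell by 3.56 (adjusted p = 0.0177 with edgeR) and *Prdm16* by 3.04 (adjusted p = 0.000345 with edgeR) on the log2 scale. The log2 fold change of *Gata4* was -5.17 without KO replicate 1 and -3.24 without KO replicate 4. With the smooth muscle and the epithelium score in turn it was -0.40 and -2.87, not called with either.

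**Figure D5:**
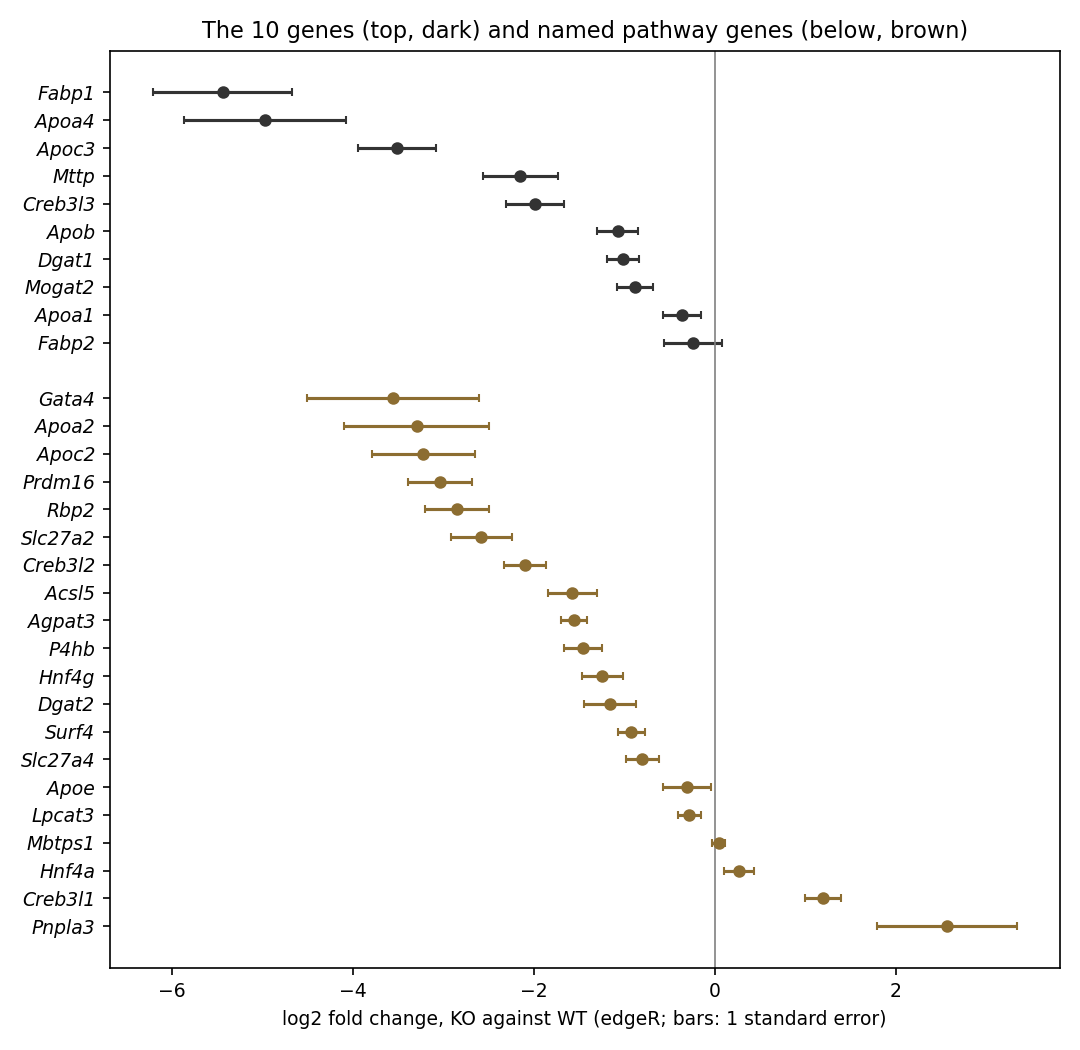
log2 fold change of KO against WT from edgeR, with 1 standard error to each side, for the 10 genes (dark) and the named pathway genes (brown) except *Fabp6*, at 12.8. *Fabp1* and *Apoa4* lie furthest to the left, *Apoa1* and *Fabp2* nearest to 0 among the 10, and *Creb3l1* and *Pnpla3* lie to the right of 0.

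For each of the 10 genes, the 3 genes with the most alike pattern were found among those outside the 10 with a mean of at least 10 CPM, by the root mean square difference of centred log2(CPM + 1) over the 10 libraries. *Enpp3*, an ectonucleotidase of the villus tip list, came first among these for both *Apoa4* and *Fabp1*, at 0.456 and 0.850, and had a mean of 895 CPM in WT and 21.7 CPM in KO libraries. *Fabp1* and *Apoa4* themselves differed by 0.728. *Slc2a2* (GLUT2), a sugar transporter of enterocytes, was second for *Apoa4* and the third for *Fabp1*, with 459 and 15.5 CPM. *Creb3l2* was first for *Creb3l3*, at 0.212. For *Dgat1* the nearest were *Hadh* and *Scp2*, at 0.0776 and 0.0913, and for *Mogat2* they were *Btnl1* and *Mdh1*, at 0.0927 and 0.0958. *Apoc3* was nearest to *Aadac* at 0.374, *Apob* to *Fam126b* at 0.104, *Mttp* to *Sec14l2* at 0.286, *Apoa1* to *Fam213b* at 0.118 and *Fabp2* to *Pdzk1* at 0.250. The 10 libraries of 2 groups carry the likeness, and it says nothing of shared control.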

How the data were processed

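RNA-seq of proximal intestine of 5 WT and 5 KO mice was reanalysed, 1 library for each mouse. The files the authors deposited hold raw read counts by Ensembl gene ID without normalization, and 0 columns were unused. The submitters' processing notes name FastQC 0.11.9, Trimmomatic, HISAT2 2.0.4, SAMtools 1.3.1, DESeq2 1.14.1 and the builds GRCm38 and mm10. The counting tool, its annotation and its strand setting were not given in the sources used here, so reads of overlapping genes on opposite strands may be counted for either.

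IDs were matched to symbols by GENCODE M21. The tools were edgeR 4.0.16, DESeq2 1.42.0 and limma 3.58.1 under R 4.3.3. CPM are counts divided by TMM effective totals of the 15610 genes that filterByExpr kept (minimum count 10, minimum total 15). KO and WT were compared by edgeR's quasi-likelihood test on these genes, with p-values adjusted over all of them (Benjamini-Hochberg) and a threshold of 0.05. Standard errors are the log2 fold change divided by the square root of the F statistic. *Apoa5*, below the filter, was compared by an exact permutation test of log2(CPM + 1). The quasi-likelihood test was also run on simulated counts with the same spread for all genes. Genes differ in spread here, so nothing is read from that run. Totals of 16729787 to 20819678 counts set the precision, and p-values weigh the difference between the groups against the spread between mice.

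The 10 genes, the pathway and marker lists and their tests were chosen with earlier results of these data known. Named pathway genes were the 2 with the highest mean CPM and the 2 with the largest absolute log2 fold change of each list; *Apoo*, *Apool*, *Apoc1*, *Apod* and *Apoh* were named after their values were seen. Marker lists named at most 3 genes. RefSeq promoters come from a table of GRCm38.p6, and the motifs were chosen with the values of the genes known.

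Alternatives were DESeq2, RLE size factors, library size without TMM, a filter of a mean count of 10 or none, each library left out, the replicate number as a block, and a smooth muscle or an epithelium score in the model. Replicate numbers are shared by the groups without a stated meaning.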

Additional observations from a re-analysis of the deposited data

Results flagged for a closer look

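In 20 groups of 5 libraries (10 genes in WT and in KO mice), the gap between an extreme library and its nearest neighbour was set against the range of the group by Dixon's test, which flags about 1 in 20 groups by chance. 2 groups were flagged, both through KO replicate 1. *Mttp* had 1448 CPM in KO replicate 1, and the other KO libraries had 280.1 to 543 CPM. *Fabp2* had 7535 CPM in KO replicate 1, and the other KO libraries had 2216 to 3441 CPM.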

How the results depend on the processing

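The smooth muscle and epithelium scores did not overlap between the groups (smooth muscle 6.85 to 7.63 in WT and 8.25 to 9.69 in KO libraries, epithelium 9.49 to 9.75 and 9.94 to 10.4), so that score and genotype cannot be told apart. With the smooth muscle score in edgeR's model 7 genes were called higher and 4 lower, with 0 of the 10 genes lower (5 at an unadjusted p under 0.05) and 1 pathway gene higher and 0 lower (11 and 15 unadjusted). With the epithelium score the values were 11 and 2 genes, 0 of the 10 (4 unadjusted), and 1 and 0 pathway genes (17 and 23 unadjusted). DESeq2 without a score called 8 of the 10 genes and 17 and 36 pathway genes. Signs turned for *Lpcat3* (0.058) and *Pnpla3* (-0.19) with the smooth muscle score and for *Dgat2* (0.12), *Apoe* (0.31), *Mbtps1* (-0.067) and *Hnf4a* (-0.32) with the epithelium score; that of *Fabp2*, not called, went to 0.0006 with the former. The cause was not tested.

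Leaving out 1 library in turn gave 1634 to 2944 genes higher (1634 without WT replicate 2, against 2491), 1573 to 2563 lower, 8 to 9 of the 10 genes lower, and 12 to 20 pathway genes higher and 30 to 35 lower. Without KO replicate 1 *Fabp2* joined the 8, from which nothing is read. Deviations of same-numbered libraries correlated at 0.0256, 0.0248, -0.0982, 0.195 and -0.186, and 1 of the 5 had its own number as best partner. So few values show no pairing by number but cannot exclude one. With the replicate block 8 of the 10 genes, 1950 genes higher and 1898 lower, and 12 and 29 pathway genes were called. The log2 fold change went from -4.97 to -5.88 for *Apoa4* and from -3.56 to -4.98 for *Gata4* with the block. Scaling to library size only moved the median log2 fold change of all genes from 0.03 to 0.15 and the share of calls that were higher from 53.5% to 69.4%, with 8 of the 10 genes called. Of 190 log2 fold changes of the 10 genes under these settings and relative to the epithelium markers, 189 kept direction (the exception was *Fabp2*, with the smooth muscle score), and 14 moved by more than the spread between replicates: *Apoa4*, *Apob*, *Mttp*, *Mogat2* and *Fabp1* with the smooth muscle score, *Apoa4*, *Fabp1* and *Creb3l3* with the epithelium score, and 6 relative to the epithelium markers (a difference of means and not edgeR's fold change), such as -1.58 for *Apob* and -1.51 for *Dgat1*. The mean of the epithelium markers was itself higher in KO libraries, which enters every difference relative to it. A Y-linked score was not run, since the Y-linked genes had 0 or 1 count per library. Depth limits *Apoa2* and *Apoa5*, which rest on 23 and 12 counts over all KO libraries. It also limits *Apoc1*, *Apod* and *Apoh*, with 37, 57 and 81 counts over all WT libraries.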
